A study of Saccharomyces cerevisiae with 10 samples.

Results

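The 32 genes described here carry sulfur through the budding yeast cell: they take up sulfate and methionine, reduce sulfate to sulfide, build methionine and cysteine from it, and control that supply. They were chosen by their systematic names (the MET genes of the list with MUP1, MUP3, MMP1, MHT1, SAM1, SAM2, SAM3, SAH1, CYS3, CYS4, STR2, STR3, SUL1, SUL2 and CBF1) and make up 32 of the 6608 features counted in rich medium and 32 of the 6190 listed in synthetic medium. All samples were Saccharomyces cerevisiae of the 74D694 background, grown at 30 °C to an OD600 between 0.6 and 0.8 and treated with cycloheximide, a drug that stalls elongating ribosomes. In rich medium (YPD), cells with the prion [PSI+] gave 2 footprint libraries and 1 mRNA library, and cells without it, [psi-], gave the same numbers. In YNB+CSM-U medium with 2% glucose, a synthetic medium, [PSI+] cells overexpressing SUP35-Cter gave 2 footprint libraries and [PSI+] cells without it gave 2. [PSI+] is the self-propagating aggregated form of Sup35, the termination factor eRF3. SUP35-Cter is its C-terminal part, which terminates translation and lacks the prion-forming region. A footprint is the stretch of mRNA shielded by a translating ribosome, so footprints per gene follow the number of ribosomes on its mRNA. All cells came from 1 strain background, and the promoter driving SUP35-Cter was not given in the sources consulted. SUP35 itself averaged 20432 with SUP35-Cter and 6207 in [PSI+] alone in the authors' deposited YNB table (adjusted p = 0.0053 there), and it had 307 and 297 CPM in the [PSI+] YPD footprint libraries against 645 and 634 CPM in the [psi-] libraries.

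Yeast imports sulfate, activates it with ATP and reduces it in steps to sulfide, which is joined to an activated homoserine to give homocysteine. Homocysteine is methylated to methionine or turned into cysteine through cystathionine, and methionine feeds S-adenosylmethionine (SAM), the methyl donor of the cell. The activator Met4 switches these genes on through the DNA-binding proteins Cbf1, Met31 and Met32, and the ubiquitin ligase subunit Met30 holds Met4 back when sulfur amino acids are plentiful. Rich medium contains methionine.

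In YPD, 31 of the 32 genes had enough footprints to be tested, and 11 fell and 4 rose in [PSI+] against [psi-] cells. The falls lay in the regulators (MET28, MET31, MET32, MET30), the sulfate-reducing enzymes (MET3, MET14, MET16), the homoserine acetyltransferase MET2, the permease MUP3, and CYS3 and STR2 of transsulfuration. The rises were CYS4, which makes cystathionine, MET6, the methionine synthase, and the neighbouring genes MMP1 and MHT1, which import and use S-methylmethionine. Over all 5135 features tested, 18.9% fell and 15.7% rose (34.6% in all) by the same rule, a quasi-likelihood adjusted p under 0.05 in edgeR. Without overlap between the groups, 18 of the 31 lay lower and 9 higher in [PSI+], against 37.1% and 35.9% of all features tested. Values are given as CPM, footprint reads scaled to library size, and whether every cell or a share of the cells changed cannot be told apart in bulk cultures. The median log2 fold change ([PSI+] minus [psi-]) was -0.41 over the 31 genes and 0.02 over all features. CYS4 and MET6 weighed most in the sum: all 32 genes together took 1.35% and 1.5% of footprint reads in the [PSI+] libraries, against 1.15% and 1.16% in the [psi-] libraries. CYS4 and MET6 alone took 0.691% and 0.710% in [PSI+], against 0.406% and 0.408% in [psi-].

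**Figure D1:**
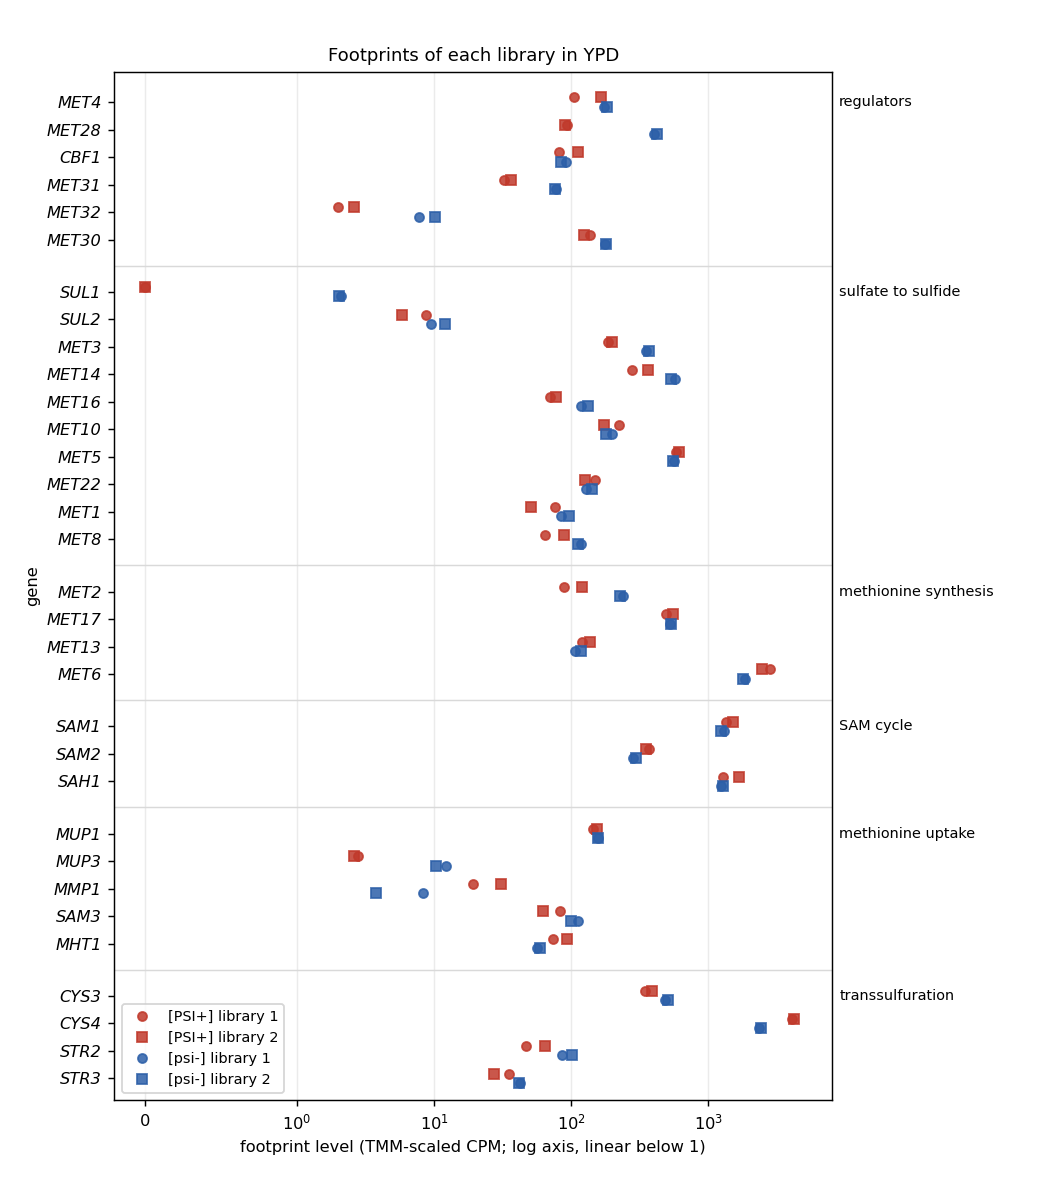
Footprint level of each gene in each of the 4 YPD footprint libraries (TMM-scaled CPM, log axis that is linear below 1), with genes grouped by role and 1 point per library. CYS4 stands at 4064 and 4227 CPM in the [PSI+] libraries and at 2341 and 2420 CPM in the [psi-] libraries, while SUL1 has no read in [PSI+].

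Depth and spread bear on every call. The [PSI+] footprint libraries held 2497170 and 3257673 reads and the [psi-] libraries 3461402 and 3579039, and the mRNA libraries 5494957 in [PSI+] and 2480012 in [psi-]. Between the [psi-] footprint libraries the chi-square value divided by its degrees of freedom was 1.27, where 1 is counting noise, while runs of different [PSI+] libraries gave 19.35 to 19.83. The authors' description calls the libraries of each strain biological replicates without naming cultures, and p-values reflect only the spread among them. Where 1 library is left out, the lone one of its strain is assumed to vary like the other strain's pair. Without a [PSI+] library that pair is the [psi-] one, with a spread near counting noise, so even small differences pass. The number of calls moved with these libraries over the whole table as well as in the list. With the [psi-] pair counted as 1 sample, 1 of these genes rose and 4 fell, against 2.3% and 7.9% of all features tested. Without [psi-] replicate 1 it was 1 and 3 (2.2% and 7.6% of all features), and without [psi-] replicate 2 it was 0 and 4 (2.1% and 7.3%). Without [PSI+] replicate 1 it was 10 and 16 (32% and 33.0% of all features), and without [PSI+] replicate 2 it was 7 and 14 (29.6% and 29.9%). With upper-quartile scaling 5 of these genes rose and 8 fell, and over all features the split was 23.7% rising and 15.5% falling. Of the 32 genes, 16 stand in the authors' deposited YPD table, 2 higher and 14 lower in [PSI+]. That table holds 13 of the 15 genes called here, all 13 in the same direction, from the same counts. The rises MET6 and MHT1 are not in it. It also lists MET1, MET8 and SAM3 as lower in [PSI+], with the authors' DESeq adjusted p at 0.0089, 0.0086 and 0.0064.

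Among the regulators, 4 of 6 fell and 0 rose, against 18.9% and 15.7% of all features tested. MET28 (YIR017C), a bZIP cofactor that steadies Met4 on DNA, had 93.9 and 90.8 CPM in [PSI+] against 401 and 426 CPM in [psi-]. It fell by 2.16 ± 0.12 on the log2 scale (SE; edgeR adjusted p = 0.00028), more than any other tested gene of the list. Its call held in each of the 12 alternative settings, with log2 fold changes between -2.33 and -2.01.

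MET31 and MET32 (YDR253C) encode related zinc finger proteins that bring Met4 to its targets. MET31 (YPL038W) had 32.2 and 36.2 CPM in [PSI+] against 77.5 and 76.6 CPM in [psi-], a log2 fold change of -1.15 ± 0.14 (edgeR adjusted p = 0.0036) that held in all 12 settings. MET32 was sparsely covered, with 5 and 9 reads in [PSI+] against 26 and 35 reads in [psi-] (log2 -1.61 ± 0.32, edgeR adjusted p = 0.015). In both genes the [PSI+] libraries lay below both [psi-] libraries, as in 37.1% of all features tested. MET30 (YIL046W) fell to 137 and 125 CPM in [PSI+], against 177 and 180 CPM in [psi-] (log2 -0.45 ± 0.12, edgeR adjusted p = 0.035). The MET32 and MET30 calls ended without [psi-] replicate 1 (edgeR adjusted p = 0.067 and 0.32) or replicate 2 (0.15 and 0.35).

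MET4 (YNL103W) itself, the activator, had 105 and 166 CPM in [PSI+] against 174 and 184 CPM in [psi-] and did not pass (log2 -0.39 ± 0.22, edgeR adjusted p = 0.22). Its [PSI+] libraries differed from each other more than its groups did. The log2 fold change was -0.11 without [PSI+] replicate 1 and -0.74 without replicate 2. CBF1 (YJR060W), whose helix-loop-helix protein also serves centromeres, had 81.6 and 112 CPM in [PSI+] against 91.8 and 83.9 CPM in [psi-], and these ranges overlap (log2 0.15 ± 0.18, edgeR adjusted p = 0.55). CBF1 stood at 0.35 without [PSI+] replicate 1 and at -0.08 without replicate 2.

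Of the 10 genes of sulfate uptake and reduction, 9 were tested, 3 fell and 0 rose, against 18.9% and 15.7% of all features tested. The 3 are the enzymes that activate sulfate and reduce it to sulfite. MET3 (YJR010W), the ATP sulfurylase, had 185 and 199 CPM in [PSI+] against 352 and 368 CPM in [psi-] (log2 -0.91 ± 0.11, edgeR adjusted p = 0.0042). MET14 (YKL001C), the adenylylsulfate kinase, had 278 and 365 CPM in [PSI+] against 571 and 533 CPM in [psi-] (log2 -0.78 ± 0.17, edgeR adjusted p = 0.019). MET16 (YPR167C), the PAPS reductase, had 70.5 and 77.2 CPM in [PSI+] against 117 and 132 CPM in [psi-] (log2 -0.75 ± 0.13, edgeR adjusted p = 0.011). All 3 had lower values in both [PSI+] libraries than in either [psi-] library, as did 37.1% of all features tested. Without [psi-] replicate 1 their edgeR adjusted p was 0.064, 0.19 and 0.081, and without [psi-] replicate 2 it was 0.083, 0.14 and 0.16, none of them under the threshold, with log2 fold changes between -0.94 and -0.66.

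For the next step, sulfite to sulfide, neither subunit gene passed. MET10 and MET5 (YJR137C) encode the subunits of sulfite reductase. MET10 (YFR030W) had 223 and 173 CPM in [PSI+] against 198 and 180 CPM in [psi-] (log2 0.06 ± 0.16, edgeR adjusted p = 0.78). MET5 had 578 and 615 CPM in [PSI+] against 565 and 556 CPM in [psi-] (log2 0.09 ± 0.12, edgeR adjusted p = 0.61). Without [PSI+] replicate 1, MET10 stood at -0.13 and MET5 at 0.13, and without replicate 2 they stood at 0.25 and 0.06. MET1 and MET8 (YBR213W), which make the siroheme cofactor of that enzyme, stood lower without passing. MET1 (YKR069W) had 75.6 and 51.2 CPM in [PSI+] against 84.9 and 96.0 CPM in [psi-] (log2 -0.52 ± 0.21, edgeR adjusted p = 0.10), and MET8 had 64.1 and 88.5 CPM against 117 and 113 CPM (log2 -0.58 ± 0.18, edgeR adjusted p = 0.051). Without [PSI+] replicate 1, MET1 stood at -0.81 and MET8 at -0.37, and without replicate 2 they stood at -0.24 and -0.82. MET22 (YOL064C), the phosphatase that removes the PAP left over by the reductase, had 148 and 126 CPM in [PSI+] against 128 and 143 CPM in [psi-] (log2 0.01 ± 0.14, edgeR adjusted p = 0.97).

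The sulfate permeases were near the floor of detection. SUL1 (YBR294W) had no footprint read in [PSI+] (0 and 0) and 7 in each [psi-] library, and it was too sparse to be tested. With a floor of 3 reads over the [PSI+] group it was 3.81-fold lower there, a value that leaves out the counting error of the [psi-] reads. SUL2 (YLR092W) had 22 and 20 reads in [PSI+] against 32 and 41 reads in [psi-] (log2 -0.50 ± 0.31, edgeR adjusted p = 0.25). SUL2 stood at log2 -0.79 without [PSI+] replicate 1 and at -0.19 without replicate 2.

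Of the 4 genes that lead from sulfide to methionine, MET2 (YNL277W) fell and MET6 rose. MET2, which acetylates homoserine, had 88.0 and 119 CPM in [PSI+] against 240 and 227 CPM in [psi-] (log2 -1.17 ± 0.17, edgeR adjusted p = 0.0060), a call that held in all 12 settings. MET6 (YER091C), the cobalamin-independent methionine synthase, had 2804 and 2469 CPM in [PSI+] against 1845 and 1799 CPM in [psi-]. It rose by a log2 fold change of 0.53 ± 0.14 (edgeR adjusted p = 0.034), and the call ended without [psi-] replicate 1 (0.54, edgeR adjusted p = 0.41) or replicate 2 (0.51, edgeR adjusted p = 0.43) and in DESeq2 (0.36, adjusted p = 0.23).

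The other two genes of that route did not pass. MET17 (YLR303W), the homocysteine synthase, had 492 and 554 CPM in [PSI+] against 524 and 531 CPM in [psi-] (log2 -0.01 ± 0.13, edgeR adjusted p = 0.95). The RefSeq R64 annotation has YLR302C overlapping MET17, so reads in the overlap are uncertain. MET13 (YGL125W), a methylenetetrahydrofolate reductase that supplies the methyl group, had 119 and 137 CPM in [PSI+] against 107 and 117 CPM in [psi-] (log2 0.20 ± 0.13, edgeR adjusted p = 0.28). It stood at 0.29 without [PSI+] replicate 1 and at 0.11 without replicate 2.

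None of the 3 SAM cycle genes passed, and all 3 had higher values in both [PSI+] libraries than in either [psi-] library. Groups that do not overlap in this direction were common, at 35.9% of all features tested. SAM1 and SAM2 (YDR502C) encode SAM synthetases so alike in sequence that reads may have been divided between them, so each value is uncertain. SAM1 (YLR180W) had 1338 and 1513 CPM in [PSI+] against 1295 and 1229 CPM in [psi-] (log2 0.17 ± 0.14, edgeR adjusted p = 0.37). SAM2 had 368 and 352 CPM in [PSI+] against 283 and 299 CPM in [psi-] (log2 0.30 ± 0.12, edgeR adjusted p = 0.090). SAH1 (YER043C), the S-adenosylhomocysteine hydrolase, had 1276 and 1673 CPM in [PSI+] against 1238 and 1276 CPM in [psi-] (log2 0.23 ± 0.17, edgeR adjusted p = 0.34). Without [PSI+] replicate 1 the log2 values were 0.26 in SAM1, 0.27 in SAM2 and 0.41 in SAH1. Without [PSI+] replicate 2 they were 0.10, 0.35 and 0.03.

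Genes that import methionine and its derivatives went both ways. MUP3 (YHL036W), a low-affinity methionine permease, had 7 and 9 reads in [PSI+] against 41 and 36 reads in [psi-] (log2 -1.78 ± 0.29, edgeR adjusted p = 0.0085). Its call ended without [psi-] replicate 1 (-1.67, edgeR adjusted p = 0.080). MUP1 (YGR055W), the high-affinity permease, had 145 and 154 CPM in [PSI+] against 156 and 157 CPM in [psi-] (log2 -0.07 ± 0.11, edgeR adjusted p = 0.68), so the better covered of both methionine permeases did not pass.

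MMP1 (YLL061W), the S-methylmethionine permease, had 48 and 106 reads in [PSI+] against 28 and 13 reads in [psi-] and rose by a log2 fold change of 2.03 ± 0.41 (edgeR adjusted p = 0.016). Its 2 [psi-] libraries differed widely for so few reads, and the value was 2.65 without [psi-] replicate 1 and 1.57 without replicate 2, where the call ended (edgeR adjusted p = 0.074). Next to MMP1 in the RefSeq R64 gene order lies MHT1 (YLL062C), whose product uses S-methylmethionine to methylate homocysteine. MHT1 had 73.6 and 93.7 CPM in [PSI+] against 56.3 and 59.3 CPM in [psi-] (log2 0.54 ± 0.16, edgeR adjusted p = 0.046). The MHT1 call ended without either [psi-] replicate (edgeR adjusted p = 0.32 and 0.26) and in DESeq2 (adjusted p = 0.36). SAM3 (YPL274W), the SAM permease, had 83.2 and 62.5 CPM in [PSI+] against 112 and 98.9 CPM in [psi-] (log2 -0.53 ± 0.17, edgeR adjusted p = 0.062). SAM3 stood at -0.75 without [PSI+] replicate 1 and at -0.32 without replicate 2.

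In transsulfuration, CYS4 rose while CYS3 and STR2 (YJR130C) fell. CYS4 (YGR155W), the cystathionine beta-synthase that takes homocysteine toward cysteine, had 4064 and 4227 CPM in [PSI+] against 2341 and 2420 CPM in [psi-] (log2 0.80 ± 0.13, edgeR adjusted p = 0.0088). CYS3 (YAL012W), the cystathionine gamma-lyase of the following step, had 346 and 387 CPM in [PSI+] against 484 and 509 CPM in [psi-] (log2 -0.44 ± 0.13, edgeR adjusted p = 0.047). Genes of 2 consecutive steps went in opposite directions, though the CYS3 call lay close to the threshold. Neither gene's groups overlapped, which was common, at 35.9% of all features tested for higher and 37.1% for lower values in [PSI+]. STR2, a cystathionine gamma-synthase of the reverse route from cysteine to homocysteine, had 47.0 and 64.2 CPM in [PSI+] against 85.5 and 101 CPM in [psi-] (log2 -0.72 ± 0.19, edgeR adjusted p = 0.032). STR3 (YGL184C), the cystathionine beta-lyase of that reverse route, had 35.4 and 27.2 CPM in [PSI+] against 42.0 and 41.4 CPM in [psi-] and did not pass (log2 -0.41 ± 0.19, edgeR adjusted p = 0.14). The calls of CYS4, CYS3 and STR2 ended without [psi-] replicate 1 (edgeR adjusted p = 0.25, 0.37 and 0.10) or replicate 2 (0.23, 0.44 and 0.23), with log2 fold changes of 0.77 and 0.82, -0.48 and -0.41, and -0.84 and -0.61. STR3 stood at -0.60 without [PSI+] replicate 1 and at -0.20 without replicate 2.

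At the mRNA level, with 1 library per strain and hence no test, most of these genes lay lower in [PSI+]. Values are log2 ratios of CPM ([PSI+] over [psi-]) relative to the median of all 5231 features with 20 or more reads, and intervals are 95% exact counting intervals that leave out variation between cultures. Of the 32 genes 17 lay more than 2-fold below that median and 1 more than 2-fold above it, against 22.1% below and 21.3% above (43.4% in all) over all measured features. The median itself stood at -0.42, and without centring on it 22 of the 32 lay more than 2-fold lower, against 32% of all measured features. In all, 26 of 32 lay below the median (50% of all features do), and the median of the list was -1.05. All 32 genes together took 0.635% of mRNA reads in [PSI+] against 1.21% in [psi-].

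**Figure D2:**
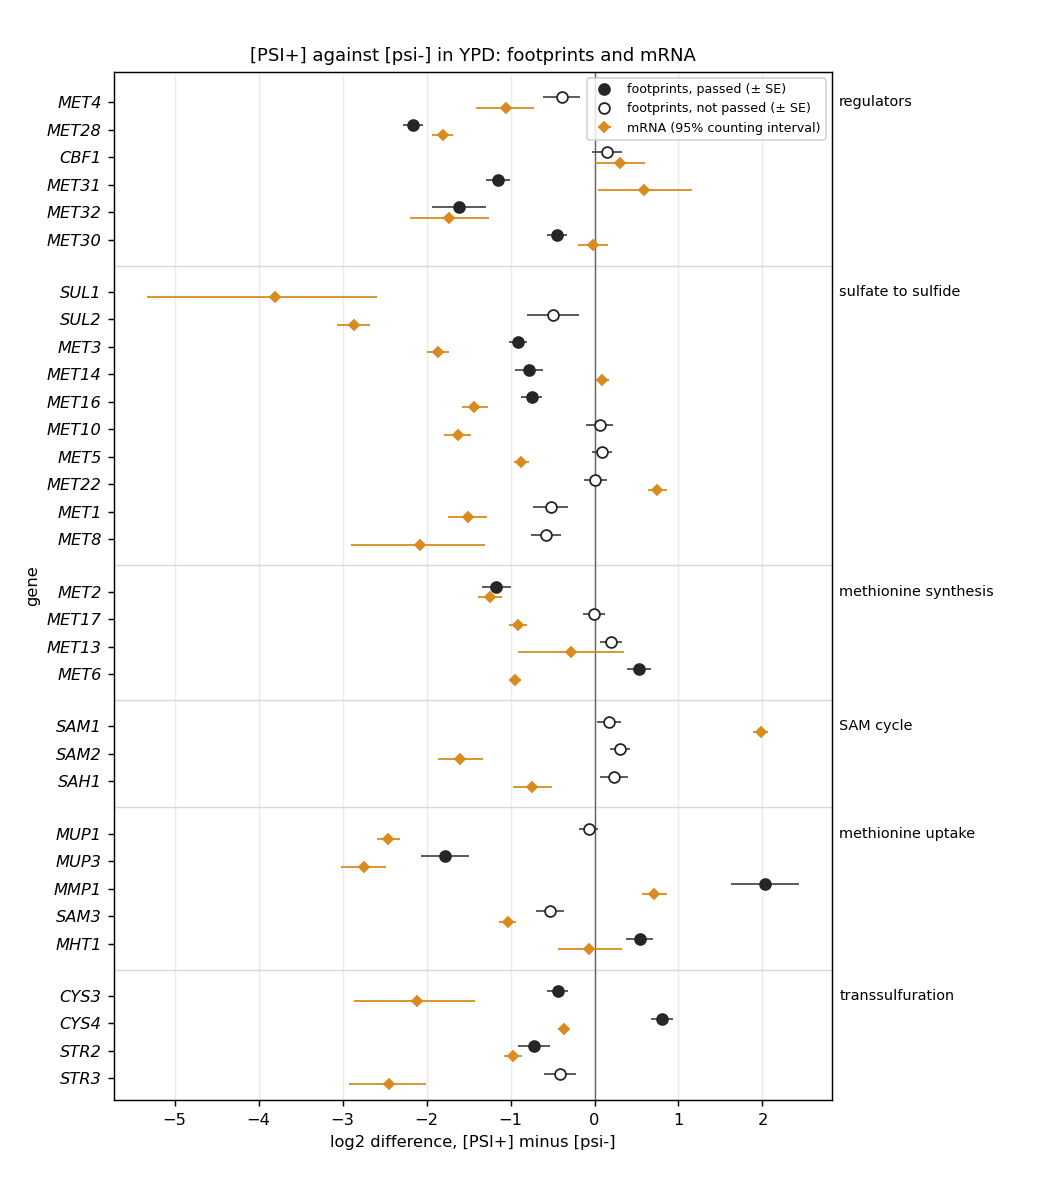
Log2 difference of [PSI+] minus [psi-] in YPD for each gene: circles are footprints with their SE (filled where the gene passed the test, open where it did not), diamonds are mRNA relative to the median of all features with the 95% counting interval. MUP1 footprints lie at -0.07 with mRNA at -2.46, and SAM1 has the highest mRNA value at 1.98.

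Sulfate uptake and reduction had an mRNA median of -1.57, with 7 of 10 genes more than 2-fold down. Transsulfuration lay close to it, with a median of -1.54 and 2 of 4 genes more than 2-fold down. SUL2 had 264 mRNA reads in [PSI+] against 1169 in [psi-], a relative log2 ratio of -2.87 (interval -3.07 to -2.68). SUL1 had 5 reads in [PSI+] against 50 in [psi-] (-3.81, interval -5.33 to -2.59). MET3 had 659 reads in [PSI+] against 1448 in [psi-] (-1.86, interval -2.0 to -1.73). MET16 had 547 reads in [PSI+] against 890 in [psi-] (-1.43), MET10 had 478 against 895 (-1.63, interval -1.79 to -1.47) and MET1 had 243 against 419 (-1.51, interval -1.74 to -1.28). MET8 was sparsely sampled, with 19 reads in [PSI+] against 50 in [psi-] (-2.08, interval -2.90 to -1.31). MET5, at 2089 reads in [PSI+] against 2308 in [psi-], stood at -0.87. The remaining members of this group differed from these. MET14 had 3956 reads in [PSI+] against 2242 in [psi-] (0.09, interval 0.02 to 0.17, and -0.33 without centring), and MET22 had 2519 against 904 (0.75, interval 0.64 to 0.86).

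Regulators were divided in mRNA. MET28 had 788 reads in [PSI+] against 1667 in [psi-] (-1.81, interval -1.93 to -1.68), MET32 had 58 against 117 (-1.73, interval -2.20 to -1.26) and MET4 had 125 against 158 (-1.06, interval -1.41 to -0.72). MET30 had 686 reads in [PSI+] against 420 in [psi-] (-0.02), and CBF1 had 280 against 137 (0.30, interval 0.00 to 0.60, and -0.12 without centring). MET31 had 96 reads in [PSI+] against 38 in [psi-] (0.59, interval 0.04 to 1.16). MET28 and MET32 thus lay lower in both readouts, while MET31 fell in footprints with an mRNA ratio above the median.

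Among the later steps the methionine permeases MUP1 and MUP3 and the lyases STR3 and CYS3 were lowest. MUP1 had 596 mRNA reads in [PSI+] against 1978 in [psi-] (-2.46, interval -2.59 to -2.32) and MUP3 had 139 against 567 (-2.75, interval -3.02 to -2.48). STR3 had 54 reads in [PSI+] against 181 in [psi-] (-2.45, interval -2.92 to -2.01), and CYS3 had 23 against 62 (-2.12, interval -2.86 to -1.42). SAM3 had 1350 reads in [PSI+] against 1668 in [psi-] (-1.03, interval -1.14 to -0.93) and MET2 had 651 against 934 (-1.25). All of these lay more than 2-fold down. Other members lay closer to the median. STR2 had 1166 reads in [PSI+] against 1381 in [psi-] (-0.97), MET6 had 2659 against 3096 (-0.95), MET17 had 1408 against 1602 (-0.91) and SAH1 had 325 against 328 (-0.74). CYS4 had 4008 reads in [PSI+] against 3116 in [psi-] (-0.36), MET13 had 52 against 38 (-0.28, interval -0.91 to 0.35) and MHT1 had 147 against 92 (-0.06, interval -0.44 to 0.33). CYS4 and MET6, which rose in footprints, thus had mRNA ratios below the median. MMP1 stood at 0.71 (interval 0.56 to 0.86), with 1332 reads in [PSI+] against 493 in [psi-].

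SAM1 and SAM2 lay on opposite sides of the median. SAM1 had 8015 mRNA reads in [PSI+] against 1229 in [psi-] (1.98, interval 1.89 to 2.07), and SAM2 had 175 against 321 (-1.60, interval -1.87 to -1.33). The pair is nearly identical and how reads with several matches were treated is unknown here, so the division of reads between them is uncertain. Without this pair 16 of 30 genes lay more than 2-fold down and 0 more than 2-fold up, with a median of -1.05.

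Translational efficiency, footprints relative to mRNA, was tested as the interaction of strain and library kind over all 6 YPD libraries. Each mRNA library had no replicate and was assumed to vary like the footprint libraries, an assumption that each of these calls needs. By that test 12 of the 32 genes rose and 2 fell in [PSI+], against 17.9% and 20.5% of all 5437 features tested. The median log2 change was 0.92 over the list and 0.02 over all features. In each of the 12 except CYS4 the footprint difference between the strains was smaller in size than the mRNA difference. Without SAM1 and SAM2, 11 of 30 genes rose and 1 fell, with a median of 0.92.

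MUP1 had the largest of these changes, a log2 value of 2.39 ± 0.20 (SE; edgeR adjusted p = 0.0031). SUL2 stood at 2.36 ± 0.36 (edgeR adjusted p = 0.0076), STR3 at 2.04 ± 0.34 (0.0092), SAM2 at 1.90 ± 0.21 (0.0037) and MET10 at 1.69 ± 0.27 (0.0086). These 5 passed under each of the 8 alternative settings, all of which reuse the same mRNA library of each strain. CYS3 (1.67), MET8 (1.49), MET6 (1.47), CYS4 (1.16), MET3 (0.95), MET5 (0.95) and MET17 (0.90) rose too. Reads may have been divided between the near-identical SAM1 and SAM2, so the changes of both are uncertain. Each alternative setting keeps the same mRNA library of each strain and cannot test that division. Nor can it test, for any rise or fall here, how far mRNA varies between cultures. The falls were SAM1 (-1.81 ± 0.24, edgeR adjusted p = 0.0055) and MET31 (-1.73 ± 0.29, edgeR adjusted p = 0.0098), and both passed under the 8 settings. Without [psi-] replicate 1 the calls of CYS3 (edgeR adjusted p = 0.055), MET8 (0.092), MET6 (0.095), CYS4 (0.20), MET3 (0.18), MET5 (0.19) and MET17 (0.22) ended, and 6 rises were counted, with MMP1 added. Without [psi-] replicate 2 the same calls except that of CYS3 ended (edgeR adjusted p between 0.10 and 0.21). Over all features 7.9% rose and 10.5% fell without [psi-] replicate 1, and 8.0% and 10.1% without replicate 2. Without [PSI+] replicate 1 there were 19 rises and 6 falls in the list, against 29.0% and 33.1% of all features, and without [PSI+] replicate 2 there were 17 and 6, against 27.8% and 32.5%.

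Within a strain, the genes covered a wide range of footprints per mRNA read. Relative to the median of all features, the log2 ratio of footprint to mRNA CPM reached 6.54 in [PSI+] and 4.62 in [psi-] for CYS3, whose mRNA was hardly sampled (23 and 62 reads). SAH1 stood at 4.73 in [PSI+] and 3.55 in [psi-], MET8 at 4.55 and 2.81, and MET13 at 3.85 and 3.17. At the other end, MMP1 stood at -3.20 in [PSI+] and -4.73 in [psi-], MUP3 at -3.14 and -4.03, and SUL2 at -2.64 and -5.16. The permeases MMP1, MUP3, SAM3 and SUL2 were all below the median in both strains, as were MET14, MET16, MET22, MET2, MET28, MET32 and STR2.

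**Figure D3:**
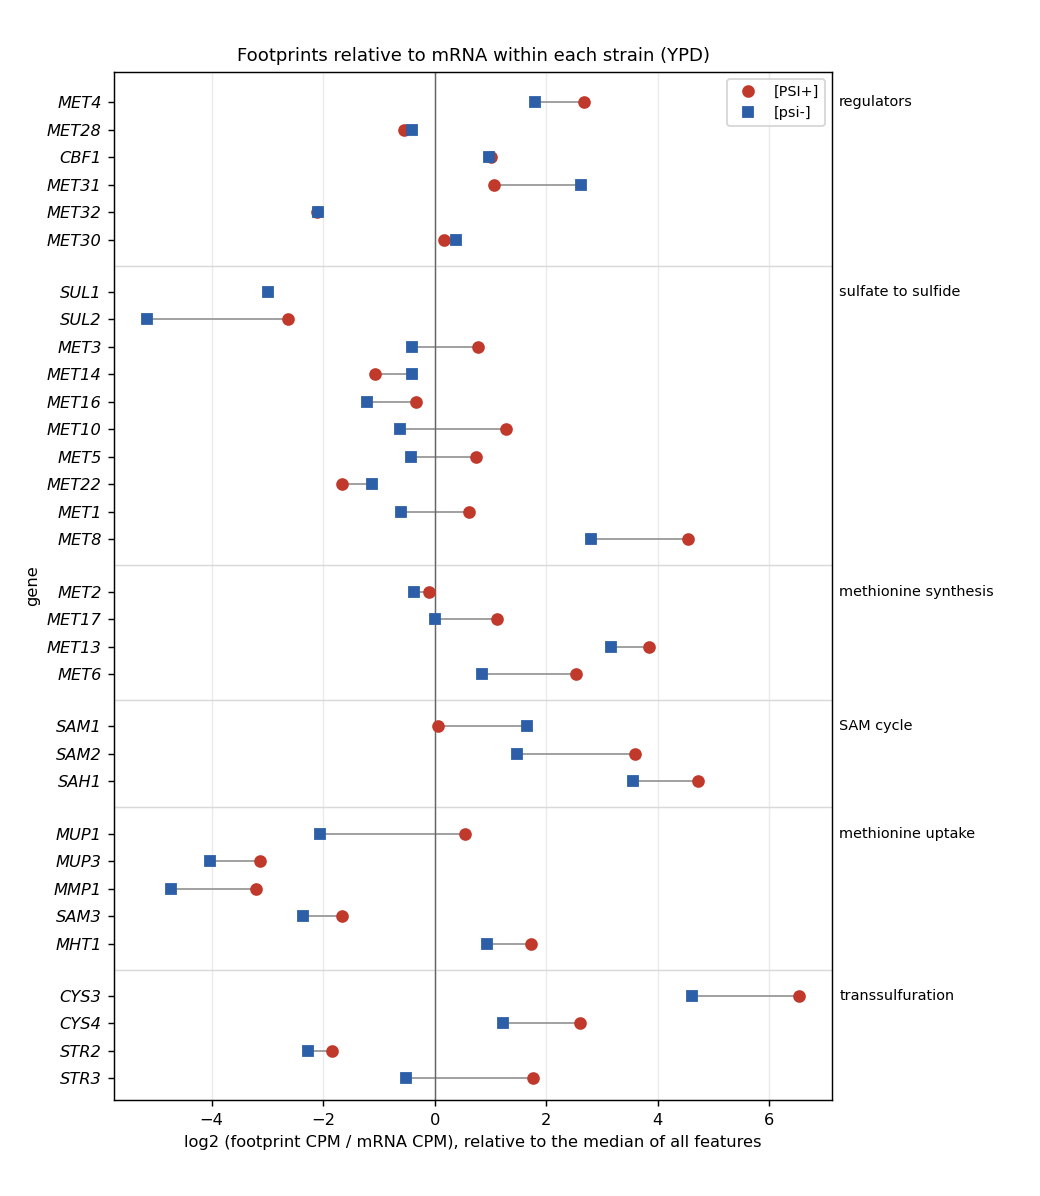
Log2 ratio of mean footprint CPM to mRNA CPM in YPD, relative to the median of all features, with circles for [PSI+] and squares for [psi-]. MUP1 lies on either side of the median, at 0.55 in [PSI+] and -2.05 in [psi-], and MET31 shows the opposite order, at 1.06 and 2.63; SUL1 has no [PSI+] value because its footprint count there was 0.

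Other genes of sulfur metabolism outside the 32 also had more falls than rises in footprints. Of 29 listed genes 27 were tested, 11 fell and 3 rose, with a median log2 fold change of -0.52. Over all features tested 18.9% fell and 15.7% rose, with a median of 0.02. HOM2 and HOM6, which supply homoserine, are listed at 0 in each YPD library. GSH1, which starts glutathione synthesis from cysteine, fell to 80.7 ± 4.92 CPM in [PSI+], against 388 ± 16.0 CPM in [psi-] (mean ± SD, n = 2 each; log2 -2.26 ± 0.12, edgeR adjusted p = 0.00028). BDS1 (-1.18), an alkyl sulfatase, ECM38 (-0.91), the gamma-glutamyltransferase of glutathione breakdown, and MRI1 (-0.83), a methionine salvage isomerase, were the next falls by size. The 3 rises were YML082W (0.98), a relative of STR2, MEU1 (0.85), the phosphorylase that opens methionine salvage, and DUG1 (0.68), a dipeptidase of glutathione breakdown.

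In synthetic medium the question was whether added SUP35-Cter changed footprints in [PSI+] cells. The authors' deposited table gives a mean normalized count per condition and no value per library, so depth and spread per library are unknown here and p-values are the authors'. SUL2, the sulfate permease gene on chromosome XII (323544 to 326225, RefSeq R64), was the only gene of the 32 under an adjusted p of 0.05 in the authors' deposited table. Of its 6190 features 1.32% passed, 1.2% higher and 0.129% lower with SUP35-Cter. SUL2 averaged 2431 with SUP35-Cter and 829 in [PSI+] alone, a log2 ratio of 1.55 (adjusted p = 6.4e-05 in the authors' deposited table). SAM2, on chromosome IV (1453310 to 1454464), had a mean of 20928 with SUP35-Cter and 8121 in [PSI+] alone (log2 ratio 1.37, adjusted p = 0.092 in the authors' deposited table). Its close copy SAM1 had 24675 with SUP35-Cter and 18958 in [PSI+] alone (log2 ratio 0.38). Of the other sulfur genes 1 of 27 listed passed in the authors' deposited table, the glutathione transporter OPT1 (log2 ratio 1.38, adjusted p = 0.001 in the authors' deposited table), which is named here after its value was seen.

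Most of the list had higher means with SUP35-Cter without passing. In the authors' deposited table the mean was higher with SUP35-Cter for 26 of 32 genes, against 48.2% of all features, more than 1.5-fold higher for 8, against 13.8%, and more than 1.5-fold lower for 0, against 8.64%. The share of genes under an unadjusted p of 0.05 was 6 of 32, against 7.59% of all features. The list's median log2 ratio was 0.30 and that of all features -0.02. All 5 genes that import or use methionine derivatives were higher: SAM3 had a mean of 13612 with SUP35-Cter and 6887 in [PSI+] alone (log2 ratio 0.98). MUP3 had 1760 with SUP35-Cter and 911 in [PSI+] alone (0.95), MMP1 had 755 and 422 (0.84), MHT1 had 410 and 258 (0.67), and MUP1 had 27649 and 21080 (0.39). Their adjusted p in the authors' deposited table was 0.42 or more.

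**Figure D4:**
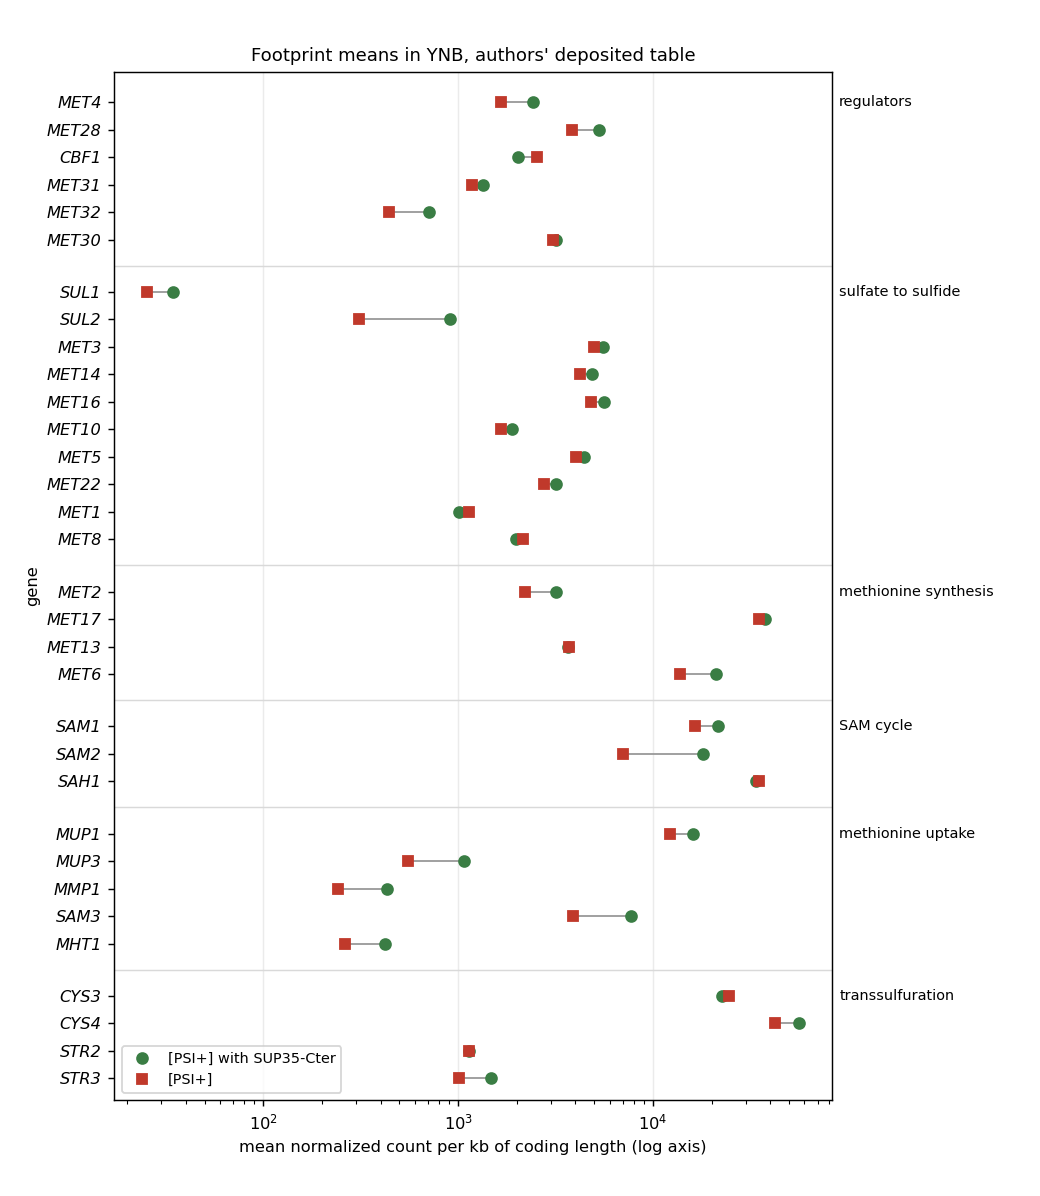
Mean normalized footprint count per kb of coding length in YNB from the authors' deposited table (log axis), with circles for [PSI+] cells overexpressing SUP35-Cter and squares for [PSI+] cells alone. SUL2 stands at 906 per kb with SUP35-Cter and 309 per kb without it, and SAM2 at 18120 and 7031 per kb; most other pairs lie close together.

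The enzymes of sulfate reduction hardly differed there. MET3, MET14, MET16, MET10 and MET5 had log2 ratios of SUP35-Cter over [PSI+] between 0.13 and 0.22, and MET1 and MET8 stood at -0.17 and -0.12 (authors' deposited table). MET6 stood at 0.61, MET2 at 0.53, CYS4 at 0.41, MET17 at 0.09, MET13 at -0.02, SAH1 at -0.04 and CYS3 at -0.12. Of the regulators MET32 stood at 0.68, MET4 at 0.56, MET28 at 0.46, MET31 at 0.19, MET30 at 0.06 and CBF1 at -0.33. STR3 (0.56), SUL1 (0.45), MET22 (0.19) and STR2 (0.00) complete the list.

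Per kb of coding length, which allows genes to be compared, CYS4 was the most densely covered gene of the list in YNB in the authors' deposited table, at 56502 per kb with SUP35-Cter and 42391 per kb in [PSI+] alone. MET17 had 37498 per kb with SUP35-Cter and 35112 per kb in [PSI+] alone, and SAH1 had 34007 and 35041. CYS3, SAM1, MET6 and SAM2 followed, at 22758, 21475, 21032 and 18120 per kb with SUP35-Cter. SUL1 was the lowest, at 34.5 per kb with SUP35-Cter and 25.3 per kb in [PSI+] alone, below MHT1 (421 and 264) and MMP1 (431 and 241).

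Levels of [PSI+] cells in the 2 media come from tables that were mapped to different builds and normalized separately, so they stand side by side without a test. Given as CPM over the summed means of the authors' deposited table, MUP1 held 745 in YNB against 149 CPM in YPD, MET17 held 1656 against 523, CYS3 1033 against 366 and SAM3 243 against 72.8. SUL2 held 29.3 in YNB against 7.27 CPM in YPD. On the low side in YNB, MHT1 held 9.10 against 83.7 CPM in YPD, MET14 91.3 against 322, MET6 1122 against 2636 and SAM1 670 against 1426. CYS4 held 2282 in YNB against 4146 CPM in YPD. Relative to the median of 4915 shared features, 5 of the 29 genes measured in both lay more than 2-fold higher in YNB and 4 more than 2-fold lower, against 23.0% and 20.9% (43.9% in all) of all shared features.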

How the data were processed

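The 32 genes, their roles and the list of other sulfur genes were chosen with earlier results of these data known. For YPD, the authors deposited counts per gene from HTSeq 0.5.3p3, in intersection-nonempty mode as their deposited description says. Mapping is listed as Bowtie 0.12.7 on sacCer2 in the submitters' processing notes. The smallest deposited count is 1 in each column, so 1 had been added. Fits and mRNA ratios keep it, and reads and CPM in the text do not. Each [PSI+] footprint library is a sum of 2 columns and so carries 2 in the fits, while every other library carries 1. With it subtracted, 4 genes rose and 10 fell in footprints. The log2 fold change went from -1.61 to -1.91 in MET32, from -1.78 to -2.05 in MUP3 and from 2.03 to 2.07 in MMP1. Per the deposited description the 4 [PSI+] footprint columns hold 2 biological and 2 technical replicates. Pairs of columns that agreed within sampling noise (chi-square over degrees of freedom 1.01 and 1.00) were summed, and the replicate number of a pair is only a name. The value columns without a sample number 0.

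Counts were tested with edgeR 4.0.16 in R 4.3.3 (TMM, filterByExpr with a minimum count of 10, glmQLFit, glmQLFTest), with Benjamini-Hochberg adjusted p under 0.05 over all features tested, after a check on simulated counts. CPM are TMM-scaled in footprints and over library totals in mRNA. DESeq2 1.42.0 was an alternative. Intervals and floors cover counting error only; the floor behind a 0 is 3 reads (0.546 to 1.21 CPM).

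For YNB, tools in the submitters' processing notes are cutadapt 1.2.1, Bowtie2, HTSeq 0.5.3p3 and DESeq 1.6.1, on sacCer3. The authors deposited mean signals per condition (counts divided by size factors), a linear fold ratio, a log10 fold and p-values. Log2 ratios here add 0.5 to each mean. The authors deposited a second YPD table of log2 fold changes made with DESeq 1.6.1 ([psi-] over [PSI+], their description), with p-values, for features with an adjusted p under 0.1. How strand and multi-mapping reads were handled was not given in the sources consulted; reads of overlapping genes are uncertain. Names and lengths come from RefSeq R64, which matched all 32 genes. The rule for named genes was to name each of the 32, and of the other sulfur genes the 4 largest called changes in each direction. The planned promoter motif search was not run, since no sequence was used here.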

Additional observations from a re-analysis of the deposited data

How the results depend on the processing

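Results were recomputed under 12 alternatives for footprints, 8 for translational efficiency, 4 for mRNA and 4 for YNB. Rises in [PSI+] footprints numbered 4 in the reported analysis, 2 with no filter on low counts, 2 in DESeq2, 1 with the [psi-] replicates summed, and 0 to 10 with 1 replicate left out. Falls numbered 11, 4 with the [psi-] replicates summed, and 3 to 16 with 1 replicate left out. Translational efficiency rises numbered 12, 6 with the [psi-] replicates summed, and 6 to 19 with 1 replicate left out; falls numbered 2, 4 with no filter, and 2 to 6 with 1 replicate left out. These counts moved with the whole table: over all features, 9.5% to 65.0% were called in footprints with 1 replicate left out and 10.2% with the [psi-] replicates summed, against 34.6% reported, and 18.1% to 62.1% and 18.7% in translational efficiency, against 38.4%. With no filter 7.3% of all features rose and 18.9% fell in footprints, and in DESeq2 311 rose and 1024 fell of 5456 with an adjusted p. Genes under the threshold in YNB numbered 1, and 2 at an adjusted p under 0.1. Signs turned for genes that had not passed. With no filter, CBF1 was -0.02, MET10 -0.11, MET5 -0.08 and MET22 -0.16, and in DESeq2 they were -0.03, -0.11, -0.09 and -0.16. Both settings keep all 6608 features, and values of called genes moved down in them as well. CYS4 went from 0.80 to 0.63 with no filter and 0.62 in DESeq2, and MET28 from -2.16 to -2.32 and -2.33. With upper-quartile factors, which move the median of all features from 0.02 to 0.17, MET17 was 0.14 and MUP1 0.08. With 1 replicate left out, CBF1 ranged from -0.08 to 0.35, MET10 from -0.13 to 0.25, MET22 from -0.11 to 0.14 and MET17 from -0.09 to 0.07. With upper-quartile factors the calls of MET30, CYS3 and STR2 also ended (edgeR adjusted p = 0.10, 0.12 and 0.051). The causes were not tested. Over all genes and alternatives, a footprint call was lost in 40 cases and gained in 27, and a translational efficiency call was lost in 21 and gained in 26. Depth limits SUL1, SUL2, MET32, MUP3 and MMP1 in footprints and SUL1, CYS3, MET8, MET13 and MET31 in mRNA. No paired analysis was possible because the 4 [PSI+] footprint columns number runs and not replicates, so their numbers match no [psi-] replicate.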
